A study of Canis lupus familiaris and Dasypus novemcinctus and Ornithorhynchus anatinus with 3 samples.

Results

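Integrins, laminins, nidogens and agrin are the genes by which cells make a basement membrane and hold on to it. Their messenger RNA was compared in the pregnant endometrium, the lining of the uterus, of dog (Canis lupus familiaris), armadillo (Dasypus novemcinctus) and platypus (Ornithorhynchus anatinus). Dog and armadillo are placental mammals (eutherians), and platypus lays eggs. Genes were taken by symbol: ITGA followed by a number or a letter, ITGB followed by a number, LAMA, LAMB or LAMC followed by a number, NID1, NID2 and AGRN. A gene also had to be listed in at least 2 of the 3 species' tables. This gave 37 genes of 12505 symbols listed in at least 2 tables: 22 integrin subunits, 12 laminin chains, both nidogens and agrin. Of the 37, 24 were listed in all 3 tables and 13 in 2. Each species had 1 library, all from pregnancy, and the labels give neither its stage nor how many animals were used. No difference therefore has a replicate check, and no p-value is given.

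Integrins are receptors in the cell membrane that pair an alpha with a beta subunit. The alpha subunit largely sets which matrix protein is bound, and the beta subunit links through talin and kindlin to the actin cytoskeleton or, for the beta subunit encoded by ITGB4, to keratin filaments. Laminins are cross-shaped trimers of an alpha, a beta and a gamma chain, and nidogens tie the laminin network to collagen IV in the basement membrane. In human endometrium the integrin made of the ITGAV and ITGB3 products is known as a marker of the receptive phase, and decidual cells surround themselves with laminin.

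There were 13625465 reads for dog, 13218476 for armadillo and 2243556 for platypus. CPM, the unit of the levels below, is a gene's reads per 1000000 listed reads of its library, without correction for gene length. One read equalled 0.0734 CPM in dog, 0.0757 CPM in armadillo and 0.446 CPM in platypus. A count of 0 was taken to allow up to 3 reads, or 0.220 CPM in dog and 1.34 CPM in platypus. Folds given below as at least a value put 3 reads in place of 0 and leave out counting error in the higher library. The exact 95% interval for 0 reads in platypus reaches 1.64 CPM, so those folds may be lower than stated. The armadillo table lists no gene at 0. Being listed at 0 was frequent in dog (21.8% of genes) and platypus (42.4%), and it touched genes that every cell uses: 6 of 40 genes of cytosolic ribosomal proteins in dog and 7 of 49 in platypus were at 0. Exact Poisson and conditional 95% intervals cover counting error only, and reads without molecular identifiers may not be independent. The label of the tissue was checked with 9 endometrial genes. Those matched had reads in every library where they were listed, and their levels differed across species. FOXO1, a decidual transcription factor, stood at 66.0 CPM in dog, 61.3 CPM in armadillo and 41.5 CPM in platypus. ESR1, the oestrogen receptor, stood at 8.22 CPM in dog and 956 in platypus. PGR, the progesterone receptor, was matched in platypus alone, at 291 CPM. FOXA2, a factor of uterine glands, stood at 0.661 CPM in dog, 1.29 CPM in armadillo and 57.5 CPM in platypus, and HAND2, a stromal factor, at 24.7 CPM in dog and 3.63 in armadillo. HOXA10 stood at 14.3 CPM in armadillo and 30.8 in platypus, HOXA11 at 11.5 CPM in dog, WNT4 at 3.67 CPM in dog and 2.23 in platypus, and GREB1 at 1.78 CPM in platypus.

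A gene was counted as higher in a library when it was at least 4-fold above the other on the CPM + 1 scale and reached 5 CPM. Armadillo led dog for most of the 31 genes listed in both, but the genes past 4-fold were split. Of the 31, 7 were higher in dog (22.6%, against 12.6% of all 8908 matched genes) and 8 in armadillo (25.8%, against 13.3%). Every listed armadillo gene had reads, whereas dog and platypus genes without reads were kept. Genes without armadillo reads could therefore not count as lower there. ITGB4 (864 CPM in dog) and AGRN (832 CPM in dog) had no armadillo value and were left out. Why they were not listed in armadillo was not tested. Counts for armadillo over platypus and for genes listed in all 3 tables have the same limit. The median log2 fold of dog over armadillo was -1.35 for the 31 genes and 0.00 for all matched genes. The balance of 7 to 8 became 4 to 13 under median-of-ratios scaling and 5 to 13 under upper-quartile scaling. The shares of all matched genes given here are for plain CPM alone. Each scaling shifts all log2 folds of a pair, before the pseudocount, by one amount. For median-of-ratios scaling the shift was -0.32 for dog over armadillo, -0.59 for dog over platypus and -0.27 for armadillo over platypus, and for upper-quartile scaling it was -0.25, -1.01 and -0.77.

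Against platypus, 15 of 28 genes were higher in dog (53.6%, against 32.0% of 9073 matched genes). In armadillo, 15 of 26 were higher (57.7%, against 36.1% of 7296). None of the genes was higher in platypus than in either eutherian, against 9.91% of matched genes in the first comparison and 11.0% in the second. ITGB6 became higher in platypus than in dog under both other scalings and with a pseudocount of 0.1 CPM, and higher than in armadillo under upper-quartile scaling. The median log2 fold was 2.35 for dog over platypus (0.61 for all genes) and 2.92 for armadillo over platypus (1.06 for all genes). In each comparison 7 genes were listed at 0 in platypus. With these set to 3 reads the medians were 1.60 and 2.63, and without them 1.49 and 1.19. Both comparisons use the same platypus library. In bulk tissue, fewer cells of a type and less RNA per cell cannot be told apart.

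Of the 24 genes listed in all 3 tables, 8 were higher in both dog and armadillo than in platypus (33.3%, against 25.8% of 6386). They were ITGA4, ITGA5, ITGA8, ITGB3, LAMB1, LAMB2, LAMB3 and LAMC3. Of the 8, 5 were listed at 0 in platypus, leaving ITGA5, LAMB1 and LAMC3. None was lower in both, against 5.48% of the 6386, although upper-quartile scaling adds ITGB6.

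**Figure D1:**
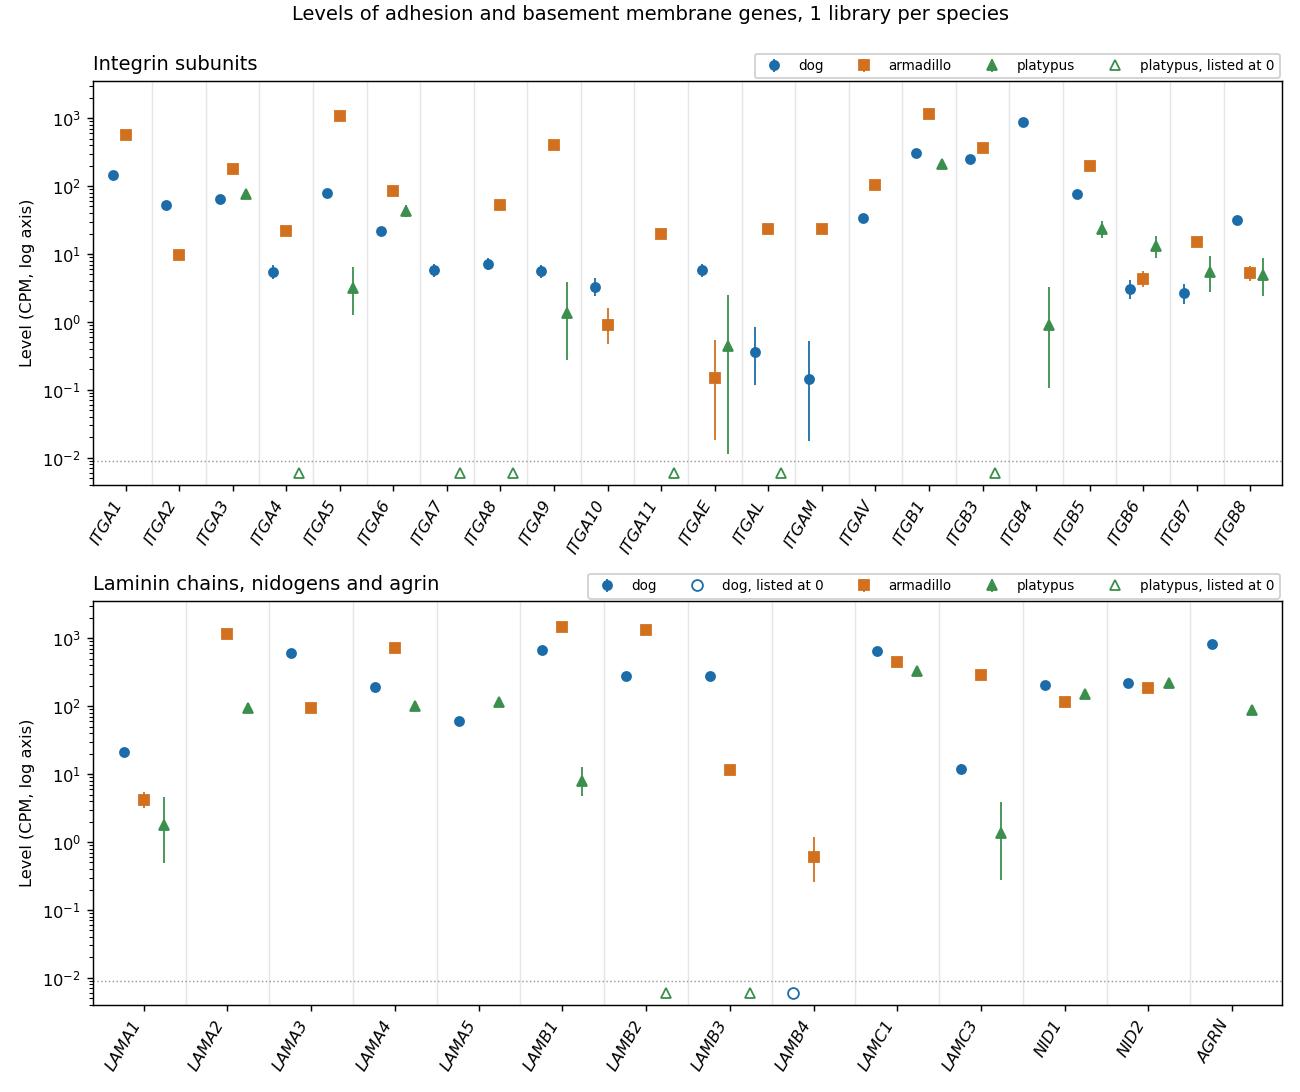
Level of each gene described, in CPM (log axis) in dog, armadillo and platypus, with exact Poisson 95% intervals for counting error, and open symbols under the dotted line for genes listed at 0. LAMC1, NID1 and NID2 have all 3 libraries within 2.001-fold, whereas LAMB1 stands at 673 CPM in dog and 1484 in armadillo against 8.02 in platypus.

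The laminin-binding alpha subunits encoded by ITGA3 and ITGA6 had reads in all 3 libraries. ITGA3 stood at 63.9 CPM in dog, 177 CPM in armadillo and 77.1 CPM in platypus, and ITGA6 at 21.8, 84.7 and 43.2 in the same libraries. Armadillo was the highest for both genes, and no pair of libraries was 4-fold apart under plain CPM. ITGA6 in dog and armadillo differed 3.88-fold (95% interval 3.41 to 4.43), and median-of-ratios and upper-quartile scaling put that difference past 4-fold. ITGA7, the laminin-binding subunit of muscle, stood at 5.80 CPM in dog and was listed at 0 in platypus, a difference of at least 4.34-fold. Under both other scalings its log2 fold (2.49 and 2.42) stayed past the limit, and the call was lost because dog fell under 5 CPM.

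Among the alpha subunits for other matrix proteins, the fibronectin receptor gene ITGA5 (ENSDNOG00000019000 in armadillo) differed across all 3 libraries. It stood at 80.0 CPM in dog, 1086 CPM in armadillo and 3.12 CPM in platypus (7 reads). Armadillo was 13.6-fold (95% interval 12.8 to 14.4) above dog and 348-fold (95% interval 169 to 866) above platypus, and dog was 25.6-fold (95% interval 12.4 to 63.9) above platypus. ITGA9, whose product binds tenascin and related ligands, stood at 5.58 CPM in dog, 397 CPM in armadillo and 1.34 CPM in platypus (3 reads). It was high in armadillo alone, 71.2-fold (95% interval 56.8 to 90.5) above dog and 297-fold (95% interval 102 to 1440.2) above platypus. ITGA8, a receptor subunit for nephronectin, had 7.12 CPM in dog and 52.3 in armadillo and was listed at 0 in platypus. Its level in armadillo was 7.34-fold (95% interval 5.93 to 9.18) above dog and at least 39.1-fold above platypus, and dog was at least 5.32-fold above platypus. ITGAV, which pairs with several beta subunits to bind RGD motifs in matrix proteins, was listed for the eutherians only, at 34.4 CPM in dog and 105 in armadillo.

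Of the collagen receptor genes, ITGA2 alone passed the limit between dog and armadillo under plain CPM. ITGA1 stood at 147 CPM in dog and 563 in armadillo, 3.83-fold (95% interval 3.65 to 4.03) higher in armadillo and just short of the 4-fold limit. Both other scalings put it past that limit. ITGA2, the collagen receptor of epithelia and platelets, went the other way, at 51.8 CPM in dog and 9.68 in armadillo, or 5.35-fold (95% interval 4.43 to 6.51) higher in dog. Under median-of-ratios scaling its log2 fold of 1.99 fell just short of the limit. ITGA10 stood at 3.30 CPM in dog and 0.908 in armadillo, and ITGA11, a receptor of fibroblasts, at 19.8 in armadillo with 0 in platypus, a difference of at least 14.8-fold.

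Of the integrin genes typical of white blood cells, ITGAL, ITGAM and ITGB7 were higher in armadillo than in dog. ITGAL, the alpha subunit of a receptor for ICAM proteins on lymphocytes, stood at 0.367 CPM in dog (5 reads) and 23.0 in armadillo and was listed at 0 in platypus. Armadillo was 62.7-fold (95% interval 26.6 to 194) above dog and at least 17.2-fold above platypus. ITGAM, the alpha subunit of the complement receptor of macrophages and neutrophils, stood at 0.147 CPM in dog (2 reads) and 23.5 in armadillo, a 160-fold difference with a wide interval (95% interval 43.9 to 1325). Reads of ITGAM, ITGAX and ITGAD, which are close copies of each other, may have been split in counting. ITGA4, which pairs with ITGB1 or ITGB7 to bind VCAM1 and fibronectin, stood at 5.43 CPM in dog and 22.2 in armadillo and was listed at 0 in platypus. It was at least 4.06-fold higher in dog and at least 16.6-fold higher in armadillo than in platypus. The dog call was lost under both other scalings because dog fell under 5 CPM, with log2 folds of 2.41 and 2.34. ITGB7 followed at 2.64 CPM in dog, 15.0 CPM in armadillo and 5.35 CPM in platypus, and was 5.67-fold (95% interval 3.96 to 8.33) higher in armadillo than in dog. ITGAE, which pairs with ITGB7 on lymphocytes inside epithelia, went against the others with 5.80 CPM in dog (79 reads), 0.151 CPM in armadillo (2 reads) and 0.446 CPM in platypus (1 read). It was 38.3-fold (95% interval 10.3 to 322) higher in dog than in armadillo and 13.0-fold (95% interval 2.27 to 520.2) higher than in platypus. Both calls were lost under both other scalings, which put dog ITGAE under 5 CPM.

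General white blood cell markers, like ITGAL and ITGAM, were higher in sum in armadillo than in dog. Over the 7 of 13 markers listed in both eutherian tables, the summed level was 63.0 CPM in dog and 367 in armadillo. Over the 4 of 13 listed in both dog and platypus (CD3D, SPI1, LCP1 and CORO1A), it was 50.3 CPM in dog and 2.67 in platypus. LCP1 gave 42.3 CPM of the sum in dog and all of it in platypus. CD3D, SPI1 and CORO1A were at 0 in platypus, as was CD4, which was not matched in dog. The part of white blood cells in the integrin differences was not tested.

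Among the beta subunits, ITGB1, the partner of most alpha subunits, stood at 303 CPM in dog, 1153 CPM in armadillo and 212 CPM in platypus. It was 5.45-fold (95% interval 4.97 to 5.98) higher in armadillo than in platypus and 3.81-fold (95% interval 3.68 to 3.94) higher in armadillo than in dog. Scaling moved both across the limit: the difference from platypus fell short under upper-quartile scaling (log2 1.67) and that from dog passed under both others. ITGB3 (ENSCAFG00000013735 in dog, ENSDNOG00000008290 in armadillo, ENSOANG00000006492 in platypus) stood at 254 CPM in dog and 360.1 in armadillo and was listed at 0 in platypus. The eutherians were within 1.42-fold (95% interval 1.36 to 1.48) of each other. Platypus was at least 190-fold below dog and at least 269-fold below armadillo. ITGB3 is also the beta subunit of the fibrinogen receptor of platelets, whose alpha subunit gene is ITGA2B.

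Platelet markers were therefore set beside it. GP9 and TREML1, the 2 of 7 listed in all 3 tables, summed to 0.220 CPM in dog, 12.3 CPM in armadillo and 0 CPM in platypus. In platypus all 4 listed platelet markers, GP9, GP1BA, TREML1 and SELP, were at 0. SELP, which endothelium also makes, stood at 624 CPM in armadillo. In dog GP9 had 2 reads and TREML1 had 1, beside 26 reads of ITGA2B and 3460 of ITGB3. In armadillo ITGA2B had 279 reads. The part of platelets in the ITGB3 levels was not tested.

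ITGB5, ITGB6 and ITGB8 also encode beta subunits that pair with the ITGAV product. ITGB5 stood at 75.7 CPM in dog, 194 CPM in armadillo and 23.2 CPM in platypus, and was 8.37-fold (95% interval 6.36 to 11.2) higher in armadillo than in platypus. ITGB8 was 6.09-fold (95% interval 4.71 to 7.97) higher in dog than in armadillo, with 31.8 CPM in dog, 5.22 CPM in armadillo and 4.90 CPM in platypus. It was also 6.48-fold (95% interval 3.59 to 13.1) higher in dog than in platypus, a call lost under both other scalings. ITGB6, a beta subunit of epithelia that activates TGF-beta, was highest in platypus, with 3.01 CPM in dog, 4.31 CPM in armadillo and 12.9 CPM in platypus (41, 57 and 29 reads). Dog was below platypus by 4.30-fold as a plain ratio (95% interval 2.57 to 7.08).

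**Figure D2:**
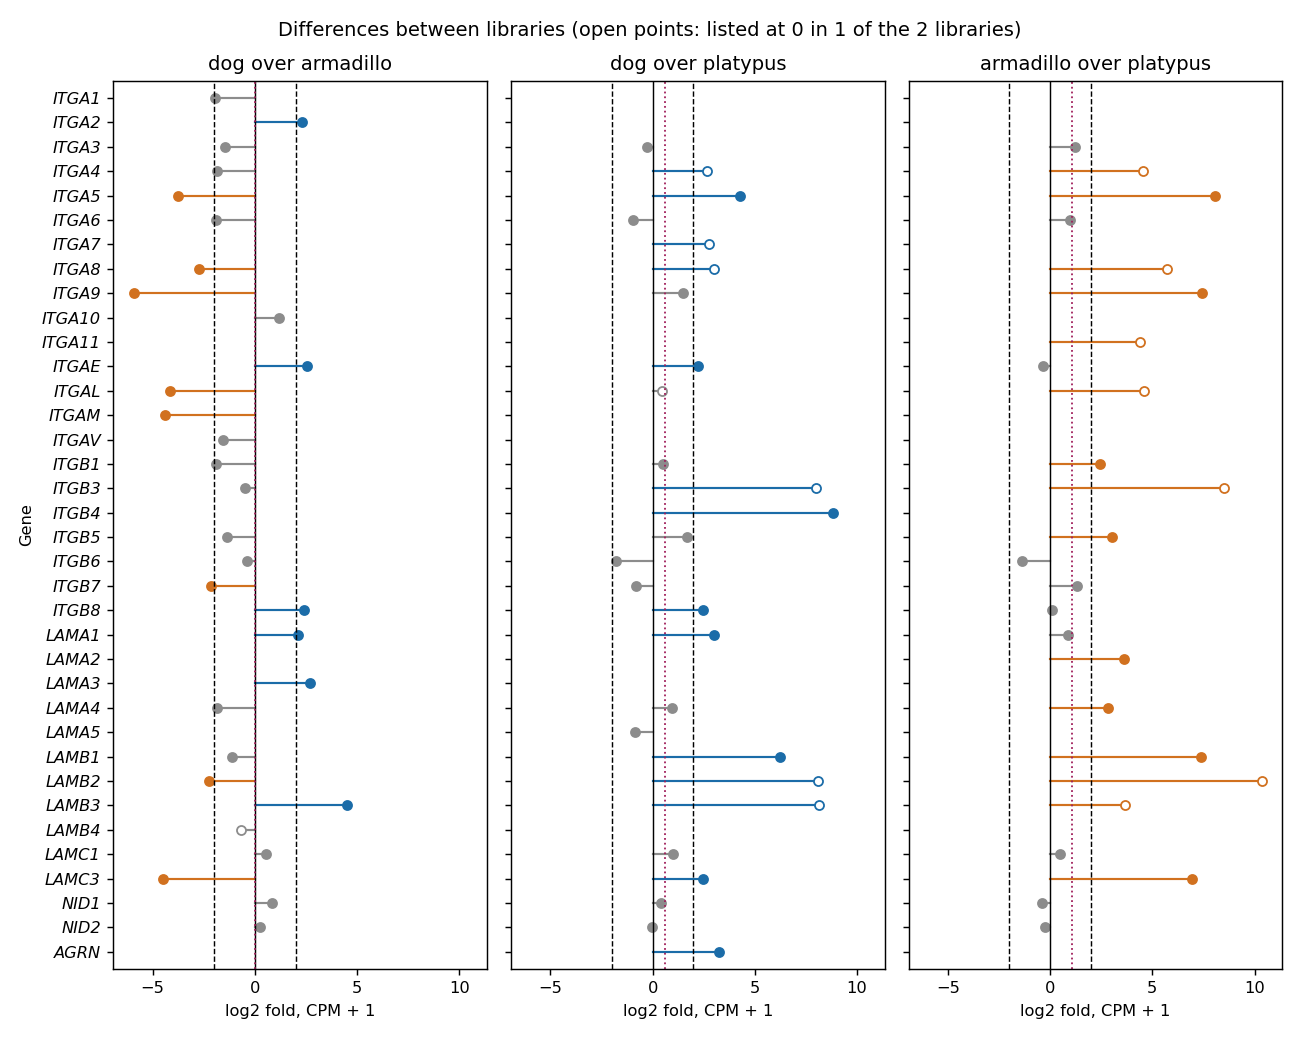
Log2 fold on the CPM + 1 scale for the genes described that were listed in both libraries of a pair, in the order dog over armadillo, dog over platypus and armadillo over platypus; coloured points passed 4-fold (dashed lines) and 5 CPM, grey points did not, open points have a library listed at 0, and the dotted line is the median of all matched genes. Points lie on both sides of 0 for dog over armadillo, and no point passes the limit towards platypus.

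ITGB4, LAMA3 and LAMB3 were high in dog. ITGB4, which anchors epithelial cells to laminin through hemidesmosomes, stood at 864 CPM in dog against 0.891 (2 reads) in platypus, with no armadillo value here, a 969-fold difference (95% interval 268 to 8002). LAMA3 and LAMB3 encode chains of laminins that anchor epithelia. LAMA3 stood at 606 CPM in dog and 93.8 in armadillo, 6.46-fold (95% interval 6.09 to 6.87) higher in dog. LAMB3 stood at 277 CPM in dog and 11.4 in armadillo and was listed at 0 in platypus, so that dog was 24.3-fold (95% interval 20.6 to 28.8) above armadillo and at least 207-fold above platypus. Armadillo was at least 8.54-fold above platypus for LAMB3. Both genes kept these calls under both other scalings. COL17A1, a transmembrane collagen of hemidesmosomes, had the same order with 167 CPM in dog, 1.74 CPM in armadillo and 0 CPM in platypus.

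LAMA1, the laminin alpha chain of early embryonic basement membranes, was also highest in dog, at 21.1 CPM against 4.16 in armadillo and 1.78 in platypus (4 reads). Dog was 5.06-fold (95% interval 3.78 to 6.88) above armadillo, a call lost under both other scalings, and 11.8-fold (95% interval 4.56 to 43.7) above platypus. Epithelial markers moved with the genes high in dog. The 5 of 11 listed in all 3 tables summed to 7626 CPM in dog, 734 CPM in armadillo and 1239.6 CPM in platypus, and in platypus the desmosome gene DSP alone gave 1237 CPM while ST14 and ELF3 were at 0. Their part in the differences of ITGB4, LAMA3 and LAMB3 was not tested.

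Laminin chains of muscle, vessels and stroma were high in armadillo. LAMA2, the alpha chain around muscle fibres, stood at 1136 CPM in armadillo and 93.6 in platypus, 12.1-fold (95% interval 10.6 to 14.0) higher in armadillo. LAMA4, the alpha chain of vessel walls, stood at 194 CPM in dog, 717 CPM in armadillo and 101 CPM in platypus. It was 7.12-fold (95% interval 6.24 to 8.16) higher in armadillo than in platypus and 3.69-fold (95% interval 3.53 to 3.85) higher in armadillo than in dog, a difference that passed the limit only under the other scalings. LAMC3, a gamma chain gene, stood at 12.0 CPM in dog, 288 CPM in armadillo and 1.34 CPM in platypus (3 reads). Armadillo exceeded dog 24.1-fold (95% interval 20.6 to 28.4) and platypus 215-fold (95% interval 73.7 to 1045). Dog exceeded platypus 8.95-fold (95% interval 3.01 to 43.8), a call lost under upper-quartile scaling, which leaves LAMC3 out of the genes higher in both eutherians, as both scalings do for ITGA4.

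Summed markers of muscle, vessels and fibroblasts were also higher in armadillo than in dog. The 2 of 8 smooth muscle markers listed in both eutherian tables summed to 23.3 CPM in dog and 21802 in armadillo, and the 3 of 11 endothelial markers to 79.0 and 7834. The 3 of 9 fibroblast markers summed to 632 CPM in dog and 8718 in armadillo. Between armadillo and platypus, the sums were 14124.5 and 12569.8 CPM for 3 smooth muscle markers that went opposite ways, 10114 and 2.67 for 6 endothelial markers and 27294 and 8551 for 7 fibroblast markers. Of the smooth muscle markers, MYH11 stood at 10803 CPM in armadillo and 277 in platypus, and ACTA2 at 161 CPM in armadillo and 11301 in platypus. Of the 7 fibroblast markers, 4 were higher in armadillo past the limit, against 36.1% of all matched genes. DCN (1668 CPM in armadillo, 5099 in platypus) and LUM (333 and 1250) went the other way, within 4-fold. ESAM, TEK, VWF, KDR and PLVAP of the endothelial list were at 0 in platypus, where CDH5 stood at 20.1 CPM and CLDN5 at 16.9 CPM. In dog CDH5 stood at 31.0 CPM and CLDN5 at 0.294 CPM, and neither gene was matched in armadillo. The part of these cell types in the laminin differences was not tested.

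All 3 laminin beta chains listed in platypus, LAMB1, LAMB2 and LAMB3, were higher in both dog and armadillo. LAMB1 (ENSCAFG00000025057 in dog, ENSDNOG00000006379 in armadillo, ENSOANG00000003187 in platypus), the most widespread beta chain, stood at 673 CPM in dog (95% interval 659 to 687), 1484 in armadillo (95% interval 1463 to 1505) and 8.02 in platypus (18 reads, 95% interval 4.75 to 12.7). Dog was 83.9-fold (95% interval 53.0 to 142) and armadillo 185-fold (95% interval 117 to 312) above platypus, whereas armadillo was 2.20-fold (95% interval 2.15 to 2.26) above dog. LAMB2, the beta chain of muscle, nerve and kidney basement membranes, stood at 274 CPM in dog and 1312 in armadillo and was listed at 0 in platypus. It was at least 205-fold higher in dog and at least 981-fold higher in armadillo than in platypus, and 4.79-fold (95% interval 4.63 to 4.97) higher in armadillo than in dog. With LAMB3 also at 0, the 18 reads of LAMB1 were all the reads of a listed beta chain in platypus. The lengths of the platypus gene models of these chains and of ITGB3 are not known here. Whether those models are complete was not tested. LAMB4 had 0 reads in dog and 8 in armadillo (0.605 CPM) and was not analysed in platypus.

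In contrast, LAMC1, the gamma chain of most laminins, and the nidogens were similar in all 3 libraries. LAMC1 stood at 651 CPM in dog, 450.2 CPM in armadillo and 325 CPM in platypus. NID1 stood at 202, 114 and 150.2 CPM and NID2 at 219.5, 186 and 223 CPM in dog, armadillo and platypus. No pair of libraries was more than 2.001-fold apart for these 3 genes under plain CPM, and their order was not fixed: the sign of 4 of their 9 folds changed under at least 1 of the other scalings. AGRN, a heparan sulfate proteoglycan that binds laminin and dystroglycan, stood at 832 CPM in dog and 87.4 in platypus, 9.52-fold (95% interval 8.27 to 11.0) higher in dog. LAMA5, an alpha chain of epithelia and vessels, stood at 61.4 CPM in dog and 114 in platypus. The dog gene model of LAMA5 implied by the deposited values is 1590 bases long, against 5599 for LAMA4, so its reads came from a short model and the platypus level, whose model length is not known here, cannot be compared closely.

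**Figure D3:**
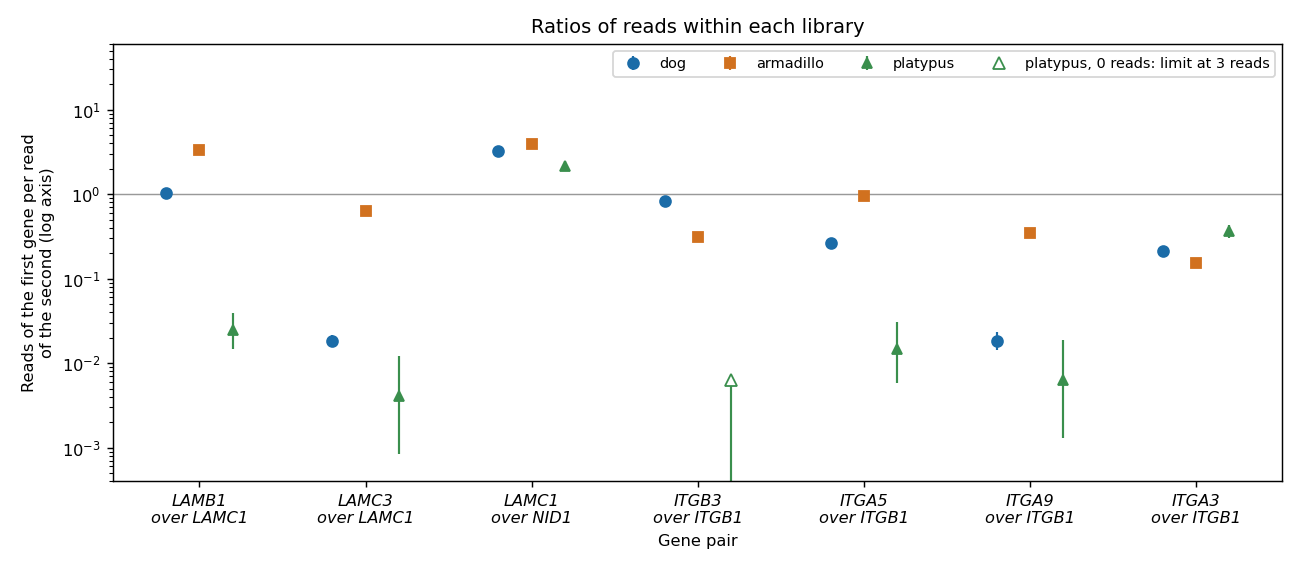
Reads of the first gene per read of the second within each library (log axis), for dog, armadillo and platypus, with exact 95% intervals for counting error; the open triangle is the limit that 3 reads would give for ITGB3 in platypus. LAMB1 over LAMC1 is 1.03 in dog and 3.30 in armadillo against 0.0247 in platypus, while LAMC1 over NID1 lies between 2.17 and 3.95 in all 3.

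Ratios of reads within a library do not depend on library scaling, although they hold the lengths of both gene models. The pairs were chosen after the levels were seen. There were 1.03 LAMB1 reads per LAMC1 read in dog (95% interval 1.003 to 1.064), 3.30 in armadillo (95% interval 3.20 to 3.39) and 0.0247 in platypus (95% interval 0.0145 to 0.0392). For LAMC1 over NID1 the ratio was 3.22 in dog, 3.95 in armadillo and 2.17 in platypus. For NID1 over NID2 it was 0.920, 0.612 and 0.674. The pairing of LAMC1 with nidogen reads thus varied less across species than that of LAMB1 with LAMC1.

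The integrin ratios had no common order of species. ITGB3 had 0.838 reads per ITGB1 read in dog and 0.312 in armadillo, and in platypus 3 reads would give 0.00632. ITGA5 had 0.264 reads per ITGB1 read in dog, 0.941 in armadillo and 0.0147 in platypus. ITGA9 had 0.0184, 0.344 and 0.00632. ITGA3 over ITGB1 stayed between 0.154 in armadillo and 0.364 in platypus, with 0.211 in dog. ITGA1 over ITGB1 was 0.485 in dog and 0.488 in armadillo. LAMC3 over LAMC1 was 0.0184 in dog, 0.640 in armadillo and 0.00411 in platypus. LAMB4 and LAMB1 lie next to each other in the RefSeq order of dog genes.

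Levels of different genes can be compared only in dog, where the deposited relative abundance is proportional to reads per base of the gene model. On that scale ITGB4 was first of the 35 listed genes at 97.8, at the 94.4th percentile of all dog genes with reads. LAMC1 followed at 83.4, AGRN at 83.2, LAMB1 at 75.1, ITGB1 at 69.6 and ITGB3 at 63.2, all at or above the 90.2th percentile. LAMB3 (48.6) came seventh and LAMA3 (36.0) ninth. LAMA3 was above LAMA5 (23.8), LAMA4 (21.4) and LAMA1 (1.41) among the alpha chains.

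Among the dog alpha subunits ITGA1 was highest per length at 26.0, before ITGA5 at 16.5, ITGA3 at 11.8, ITGA2 at 9.03 and ITGAV at 7.44. ITGA6, the only alpha partner of ITGB4, stood at 3.95 against 97.8 for ITGB4. ITGAV likewise stood below ITGB3, and the nidogens were close to each other, NID2 at 37.7 and NID1 at 32.8. The lowest genes were ITGAL at 0.0644 (6.50th percentile) and ITGAM at 0.0258, with LAMB4 at 0.

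**Figure D4:**
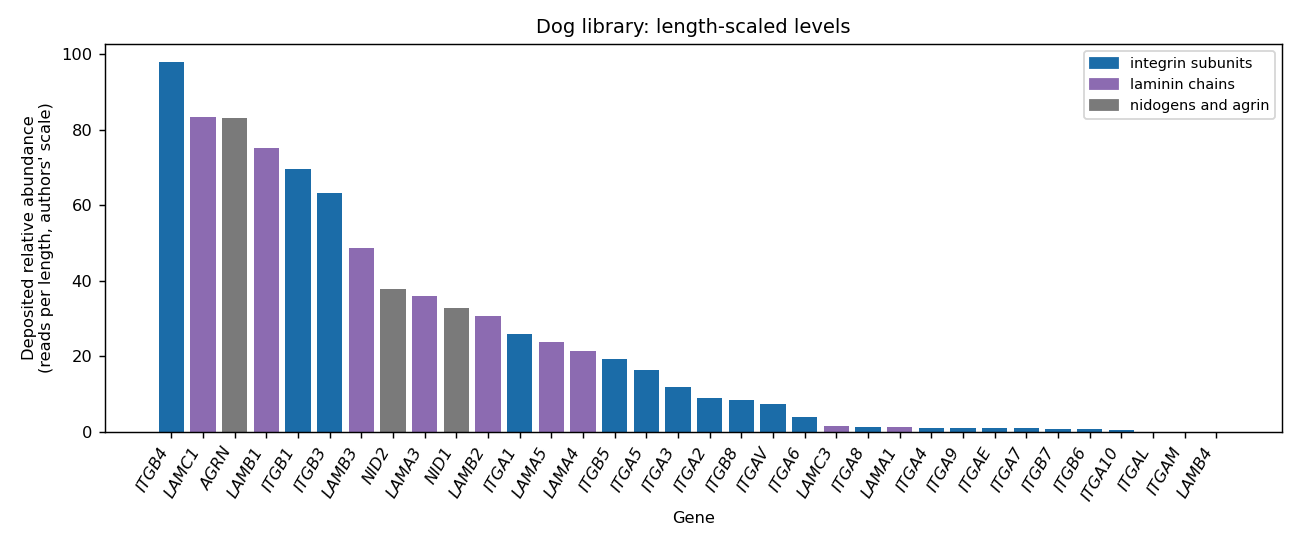
Deposited relative abundance of each gene described in the dog library (linear axis from 0, 1 value per bar, reads per length on the authors' scale), ordered from high to low and coloured by family. ITGB4 leads at 97.8, 6 genes stand above 63, and the integrins of white blood cells lie near 0.

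Partners of these genes were described by lists of ligands, basement membrane proteins, other laminin receptors with linked proteins, and adhesion proteins inside the cell. Integrin ligands were high in armadillo. Of 9 ligands matched in dog and armadillo, none was higher in dog and 7 were higher in armadillo, against 12.6% and 13.3% of all matched genes. Of 13 matched in armadillo and platypus, 9 were higher in armadillo and none in platypus, against 36.1% and 11.0% of all. Of 9 matched in dog and platypus, MFGE8 alone was past the limit, higher in dog, against 32.0% of all. Tenascin C (TNC), a ligand of the ITGA9 product, stood at 7.12 CPM in dog, 4043 CPM in armadillo and 30.3 CPM in platypus. MFGE8, an RGD protein, stood at 124, 2015 and 24.1 CPM in the same libraries. FN1 (fibronectin), the ligand of the ITGA5 product, was matched in armadillo alone, at 22077 CPM, and FBN1 (fibrillin) stood at 796 CPM in armadillo and 2.67 in platypus.

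Other basement membrane genes also favoured armadillo over both others, with 7 of 13 higher than in dog (13.3% of all matched genes) and 10 of 16 higher than in platypus (36.1% of all), and none the other way. FBLN1 (fibulin), which binds laminin and nidogen, stood at 257 CPM in dog, 2833 CPM in armadillo and 2.67 CPM in platypus. COL15A1 stood at 156, 172 and 0.446 CPM, and SMOC2 at 3.67 CPM in dog and 266 in armadillo. SPARC, a collagen-binding protein, was highest in platypus, at 328 CPM in dog, 1749 CPM in armadillo and 4846 CPM in platypus. Between dog and platypus 4 of 12 were higher in dog, a share near the 32.0% of all genes, and 3 in platypus (9.91% of all).

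Genes of other laminin receptors and of proteins linked to laminin receptors were mixed. The receptor genes DAG1 and BCAM were not matched in dog and armadillo. Of 5 matched in dog and armadillo, COL17A1 was higher in dog (12.6% of all matched genes) and 3 genes in armadillo (13.3% of all): CD151, a tetraspanin that binds laminin-type integrins (172 CPM in dog, 1071 in armadillo), DST (370.1 and 1593) and SGCE, a sarcoglycan (3.74 and 71.4). Of 6 matched in dog and platypus 4 were higher in dog (32.0% of all), all of them at 0 in platypus, and SGCE was higher in platypus (111 CPM; 9.91% of all). Of 6 matched in armadillo and platypus, 2 were higher in armadillo, a share near the 36.1% of all genes.

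Of the adhesion proteins inside the cell, talin and vinculin genes were higher in armadillo than in both others. TLN1 (talin) stood at 480.4 CPM in dog, 2995 CPM in armadillo and 45.0 CPM in platypus, and VCL (vinculin), which binds talin to actin, at 136, 1092 and 11.6. TLN2 stood at 35.0, 183 and 0.891 CPM. Of the 18 matched in dog and armadillo, 1 was higher in dog (12.6% of all matched genes) and 4 in armadillo (13.3% of all). Of 15 matched in dog and platypus, 5 were higher in dog, a share near the 32.0% of all genes, and none in platypus (9.91% of all). Of 12 matched in armadillo and platypus, 6 were higher in armadillo (36.1% of all) and 2 in platypus (11.0% of all). RAP1B, a GTPase that activates integrins, was lowest in armadillo, at 79.3 CPM in dog, 12.9 CPM in armadillo and 94.9 CPM in platypus.

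Trophoblast genes were checked because pregnant uterus can carry them. The 4 of 7 listed in all 3 tables had a summed level of 5.14 CPM in dog and 11.6 in platypus. Their sum in armadillo was 55.0 CPM, of which TFAP2C gave 45.2. These sums leave out GATA3 (16.2 CPM in dog) and TEAD4 (26.9), which were not matched in armadillo. The 6 markers listed in dog reached 48.2 CPM, and the 5 listed in armadillo reached 55.2. The gap between the eutherians thus depended on which genes were summed. GATA3 and TEAD4 were higher in dog than in platypus, and HAND1 was higher in platypus. Of the 7 markers, 5 were at 0 in platypus. The 2 nerve and Schwann cell genes listed in all 3 tables summed to 0.0734 CPM in dog, 4.77 CPM in armadillo and 1.34 CPM in platypus. What part these cells had in the levels above was not tested.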

How the data were processed

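Endometrial messenger RNA of dog, armadillo and platypus was analysed from 1 table for each. RNeasy columns with DNase treatment and Illumina library protocols were used, per the labels' protocols, and Bowtie is named in the submitters' processing notes. For its version, the builds and the annotation, nothing is given in the sources used here. The dog table deposited by the authors holds estimated counts (bases divided by 34, 516 of them not whole), which were rounded, and scores for mapped bases and a relative abundance. Dividing reads by that score and by a fitted constant gave whole lengths within 0.1 bases for 100% of 5644 genes over 500 reads. The armadillo and platypus tables deposited by the authors hold raw counts of reads. The last line of the dog and armadillo tables holds totals and was left out. No sequences were used, and positions served only to see which dog genes neighbour each other in RefSeq.

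Genes were matched by upper-case symbols that occur once per table; 82 of 1347 dog genes named by accession took their symbol from the dog RefSeq table (UU_Cfam_GSD_1.0). CPM used the sum over listed genes. Calls needed 4-fold on the CPM + 1 scale and 5 CPM in the higher library. Alternatives were median-of-ratios scaling (3496 genes at 2 CPM or more in all 3), upper-quartile scaling, other pseudocounts and filters, zeros left out, and summed symbols. Fold intervals are exact and conditional on both counts, with 3 reads standing in for 0. Of the 37 genes, 1 is counted in the totals and not reported here, and the others are described. Up to 4 genes of each of 4 partner lists were named by largest fold and by level, and marker lists are given as sums. The code that makes the calls was tested on simulated counts that held counting error only, which does not test the differences between species. Python 3.11.15, NumPy 2.4.6, pandas 2.3.3, SciPy 1.17.1 and Matplotlib 3.10.9 were used. Genes, lists and rules were chosen with earlier results of these data known.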

Additional observations from a re-analysis of the deposited data

Results flagged for a closer look

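Some genes of the same families fell outside the comparisons but had more than the 3 reads that a count of 0 allows. ITGAD, a leukocyte alpha subunit listed in armadillo alone, had 70 reads (5.30 CPM, 95% interval 4.13 to 6.69). ITGAX, a related subunit listed in dog alone, had 6 reads (0.440 CPM, 95% interval 0.162 to 0.958). ITGB2, the shared beta subunit of white blood cells, was listed in platypus alone, with 7 reads (3.12 CPM, 95% interval 1.25 to 6.43). ITGA2B, the platelet partner of ITGB3, has a longer symbol than the rule allows. It had 26 reads in dog (1.91 CPM, 95% interval 1.25 to 2.80), where it was named through its accession, and 279 reads in armadillo (21.1 CPM, 95% interval 18.7 to 23.7).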

How the results depend on the processing

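No paired analysis was possible because each species had 1 library, and no library could be left out. Median-of-ratios scaling gave 4 genes higher in dog and 13 in armadillo, 1 higher in platypus than in dog, and medians of -1.66 (dog over armadillo), 1.90 (dog over platypus) and 2.65 (armadillo over platypus). For all matched genes the medians under that scaling were -0.20, 0.25 and 0.89 in the same order. Upper-quartile scaling gave 13 higher in armadillo than in dog, 1 higher in platypus than in dog, 1 than in armadillo and 1 than in both, with medians of -1.59, 1.62 and 2.16 in the same order. All matched genes then had medians of -0.14, 0.08 and 0.56, so part of each change in the medians was shared by all genes. A pseudocount of 0.1 CPM gave medians of -1.47 for dog over armadillo and 2.87 for dog over platypus, with 1 gene higher in platypus than in dog. Requiring 2 CPM in every library compared left 4 genes higher in dog than in platypus (median 0.51), 6 higher in armadillo (median 1.26) and 2 higher in both eutherians. Leaving out genes at 0 left 9 (median 1.49), 8 (median 1.19) and 3. Both filters take out the genes at 0 in platypus, so fewer genes were compared. Among those removed, LAMB2 and ITGB3 had log2 folds over platypus of 8.10 and 7.99 in dog. In armadillo these were 10.4 and 8.50. ITGAL, at 0.45 for dog over platypus, was also removed. Without symbols by accession, an alternative chosen after seeing the data, the median of dog over platypus was 2.23. Other changes in these counts were within 1.5 times and in these medians under 0.1. Among the folds of single genes no called direction reversed under either scaling or the other pseudocount: of 255 values 15 gained the call, 15 lost it and 225 stayed called or uncalled as before. Among values not called, 4 changed sign under median-of-ratios and 7 under upper-quartile scaling. The platypus library, with 2243556 reads, limits detection most.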
